A study of Mus musculus with 4 samples.

Results

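*Dbp*, *Hlf*, *Tef* and *Nfil3* were followed as 4 of the 24054 gene symbols in an RNA-seq table of *mdx* soleus muscle. They were found by an exact match of the symbol and were chosen by their function and with the difference between treated and control muscles already in view, so their values in that comparison are given as a description and not as a test. *mdx* mice carry a mutation in the dystrophin gene. All muscles came from female *mdx* mice (C57BL/10ScSn-DMDmdx/J) that were infused through the femoral vein once a month from 8 weeks of age until the 12-month endpoint. The mCDC group received mouse cardiosphere-derived cells, a stromal cell type grown from the heart of a female C57BL/10ScSn/J mouse, and the vehicle group received the same volume of Iscove's Modified Dulbecco's Medium without cells. Each group had 2 libraries. The sample records give no hour of tissue collection, and no wild-type muscle was sequenced here.

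DBP, HLF and TEF are transcription factors of the PAR bZIP family, named for a proline- and acid-rich stretch beside the basic leucine zipper that holds DNA. They bind as dimers to a short element called the D-box and activate the genes that carry it. NFIL3, also called E4BP4, has a related leucine zipper without the PAR stretch, binds the same element and mostly represses. In many tissues, muscle included, the circadian clock drives both arms: CLOCK and BMAL1 activate *Dbp* through E-boxes, while ROR activators and REV-ERB repressors act on *Nfil3* through ROR elements, so that the activators and NFIL3 peak at different times of day.

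The DNA letters behind these roles were looked up in RefSeq promoters (GRCm38.p6), each running from 250 bases before to 50 bases after a start site. All 4 genes had a match in that table, and *Tef* had 2 start sites. The motifs searched on both strands were the E-box CACGTG, the D-box as TTATGTAA or TTACGTAA, the core of the ROR element as TAGGTCA or TGGGTCA, and the cyclic AMP response element TGACGTCA. Both *Tef* promoters held an E-box, as did 7.15% of all 32851 promoters. The *Nfil3* promoter held 1 ROR element core, found in 6.45% of all promoters, and the *Hlf* promoter held 1 cyclic AMP response element, found in 1.79%. No searched motif was in the *Dbp* window, and no member held a D-box there. A match is only a run of letters, and elements outside the window were not searched. All 250 bases before the upstream *Tef* start site, and all 30 bases printed for *Nfil3*, lay in annotated exons. The stretches below show these matches in capitals, with the D-boxes of *Per3*, a clock gene of the lists described later, as examples of the element that the members bind. A D-box was in 1.06% of all promoters.
Tef, upstream start site, chr15:81802534-81802563, plus strand, E-box in capitals: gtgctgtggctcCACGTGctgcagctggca
Tef, downstream start site, chr15:81811164-81811413, plus strand, E-box in capitals: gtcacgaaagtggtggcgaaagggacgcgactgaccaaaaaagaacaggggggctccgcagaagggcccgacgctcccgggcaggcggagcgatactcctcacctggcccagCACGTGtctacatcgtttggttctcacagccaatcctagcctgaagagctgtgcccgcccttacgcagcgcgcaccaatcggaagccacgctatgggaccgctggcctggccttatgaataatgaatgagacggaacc
Hlf, chr11:90390918-90391167, minus strand, cyclic AMP response element in capitals: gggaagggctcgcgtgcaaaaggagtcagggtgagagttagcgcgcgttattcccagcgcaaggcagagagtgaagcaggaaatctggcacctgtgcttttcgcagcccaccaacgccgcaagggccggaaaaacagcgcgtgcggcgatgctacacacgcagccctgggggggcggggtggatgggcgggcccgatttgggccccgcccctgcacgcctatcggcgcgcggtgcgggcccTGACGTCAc
Nfil3, chr13:52981033-52981062, minus strand, ROR element core (read on the other strand) in capitals: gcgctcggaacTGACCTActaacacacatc
Per3, chr4:151044852-151044881, minus strand, first D-box in capitals: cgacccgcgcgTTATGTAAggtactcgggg
Per3, chr4:151044805-151044834, minus strand, second D-box in capitals: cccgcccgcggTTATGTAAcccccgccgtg

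RNA was sequenced as single-end reads, and the deposited values are expected counts per gene, which RSEM estimates by dividing a read that fits several transcripts. The counts summed to between 22481391 and 27187425 per library. Levels are given in CPM, the count of a gene relative to its library's total, on the scale of edgeR's cpm function and after a trimmed-mean correction of that total. Calls followed the study's thresholds, a difference of more than 1.5-fold together with an unadjusted p below 0.05, here from edgeR's quasi-likelihood test. Of 13652 genes tested, 374 were called lower in mCDC muscles, a background of 2.74%, and 172 higher, a background of 1.26%. The lower calls became 277 and the higher ones 213 when trends with transcript length and GC content were removed, and 508 and 121 with plain total-count scaling. No gene had an adjusted p under 0.05 in edgeR's quasi-likelihood test, where 947 had an unadjusted p under 0.05. DESeq2 gave 48 genes with an adjusted p under 0.05. Of the 4 members only *Hlf* was among these, with an adjusted p of 0.043 in DESeq2 and 0.45 in edgeR, values from the contrast that chose it and so no support for it. With 2 libraries per group an exact two-sided permutation test of a single gene cannot give a p below 0.333. The table had the fiber profile of a slow muscle, with 7 slow fiber genes summing to between 76720 and 93180 CPM per library and 8 fast fiber genes to between 24930 and 31380. That range hides single fast fiber genes that varied far more, such as *Myh1*, from 603 to 4490 CPM. mCDC replicate 1 stood apart in other fast fiber genes and vehicle replicate 2 in endothelial markers, and both sets of values are given beside the results they touch.

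*Dbp* and *Hlf* were lower in mCDC than in vehicle muscles past both thresholds, *Tef* was lower in both mCDC libraries by less than 1.5-fold, and *Nfil3* overlapped between the groups. In whole muscle, fewer cells of a type cannot be told apart from less RNA per cell. All 4 genes passed the filter on low counts, with at least 55 counts in every library. 2 of the 4 were called lower and none higher, beside the backgrounds of 2.74% and 1.26%. For 3 of the 4, both mCDC libraries lay below both vehicle libraries, a pattern shared by 19.5% of all genes tested, and no member lay above, as 19.2% of all genes did. Because the contrast chose the genes, nothing is read from these counts.

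*Dbp*, the D-site albumin promoter binding protein, lies on chromosome 7 (chr7:45705088-45710203, plus strand, GRCm38). Its level was 93.2 CPM in mCDC replicate 1, 137.5 CPM in mCDC replicate 2, 169.9 CPM in vehicle replicate 1 and 206 CPM in vehicle replicate 2. The lowest vehicle library was 1.24-fold above the highest mCDC library, so the groups did not overlap, but the mCDC libraries themselves differed 1.48-fold. Group means were 115 ± 31.3 CPM for mCDC and 188 ± 25.8 CPM for vehicle (SD, n = 2 each), and the log2 fold change, mCDC over vehicle here and throughout, came to -0.71 with a standard error of 0.20. This value rested on the libraries at the ends: it was -0.45 without mCDC replicate 1 and -0.56 without vehicle replicate 2, and *Dbp* was not called in either case. mCDC replicate 1, the library with the least *Dbp*, had the most of 4 of the 8 fast fiber genes (*Myh4*, *Pvalb*, *Actn3* and *Atp2a1*). *Myh4*, a fast myosin heavy chain gene, was at 2096 CPM there against 47.5, 163 and 411 CPM in mCDC replicate 2 and vehicle replicates 1 and 2. In the same order, *Pvalb*, the calcium buffer parvalbumin, was at 648 against 16.8, 161 and 109 CPM, and *Actn3*, a fast fiber actinin, at 932 against 228, 471 and 341 CPM. The gap was smaller for *Atp2a1*, a calcium pump gene, at 8367 against 5659, 6806 and 6672 CPM. *Myh2* was lowest in that library, at 6749 against 9617, 7617 and 10860 CPM, and *Myh1*, *Tnnt3* and *Tnni2* were highest in a vehicle library. None of the 8 fast fiber genes was called or at 0, and their part in the *Dbp* value was not tested.

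The *Dbp* count carries a second limit, which comes from its neighbor. The 3′ end of *Dbp* runs into *Sphk2*, a sphingosine kinase gene on the opposite strand (chr7:45709467-45718002), and the exons of the pair share 539 bases. Of the 31-base words in *Dbp* transcripts, 16.9% occur in *Sphk2* transcripts on the opposite strand, and no word occurs in another gene's transcripts on the same strand. In expected counts, *Dbp* had 2461.79 (mCDC replicate 1), 3010.80 (mCDC replicate 2), 4453.66 (vehicle replicate 1) and 5674.22 (vehicle replicate 2), and *Sphk2* had 999.21, 768.20, 716.34 and 679.78 in the same order. None of these 8 values is whole, yet the pair summed to 3461, 3779, 5170 and 6354 reads, whole within 0.015 in all 4 libraries. Sums of this kind arise when whole reads are divided between 2 genes. The sample records name a stranded kit, and whether strand was used in counting is not given in the sources used here. *Sphk2* alone lay in the other direction from *Dbp*, at a log2 fold change of 0.49 with a standard error of 0.15. In CPM on total counts, the sum of both was 127 and 168 in the mCDC libraries against 199 and 241 in the vehicle libraries. The groups stayed apart, but the log2 fold change of the sum was -0.50, under 1.5-fold, and the sum was not called. The sum holds the reads of *Sphk2* itself, so it is no estimate of *Dbp* alone.

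*Hlf*, the hepatic leukemia factor gene, had the largest relative difference of the 4 and the lowest level. It lies on chr11:90336536-90390895, minus strand, and overlaps no other annotated gene. Its counts were 79 and 55 for the mCDC replicates, in order, and 158 and 229 for the vehicle replicates, or 2.99, 2.51, 6.03 and 8.33 CPM. The lowest of these counts, 55, has an exact 95% Poisson interval of 41.4 to 71.6, which covers counting error only and not the spread between muscles. Each vehicle library was at least 2.02-fold above each mCDC library, which exceeded the 1.19-fold and 1.38-fold gaps between replicates of the mCDC and vehicle groups. The mCDC mean was 2.75 ± 0.34 CPM and the vehicle mean 7.18 ± 1.63 CPM (SD, n = 2 each), for a log2 fold change of -1.38 with a standard error of 0.26. Dropping any single library gave values from -1.59 to -1.13, and *Hlf* was called each time.

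*Tef*, the thyrotroph embryonic factor gene, showed the tightest replicates. It lies on chr15:81802421-81826863, plus strand. Its levels in replicate order were 165.7 and 169.0 CPM with mCDCs against 216 and 220.2 CPM with vehicle. Replicates differed 1.02-fold in both groups, while every vehicle library was 1.28-fold to 1.33-fold above every mCDC library. Means of 167 ± 2.3 CPM for mCDC and 218 ± 3.1 CPM for vehicle (SD, n = 2 each) gave a log2 fold change of -0.38 with a standard error of 0.12. It stayed between -0.40 and -0.37 whichever library was dropped. *Tef* was not called, because the change was under 1.5-fold. An antisense gene, *Gm17597*, shares 193 exon bases with the upstream start of *Tef* and is not listed in the table. *Tef* counts were whole numbers in all 4 libraries.

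**Figure D1:**
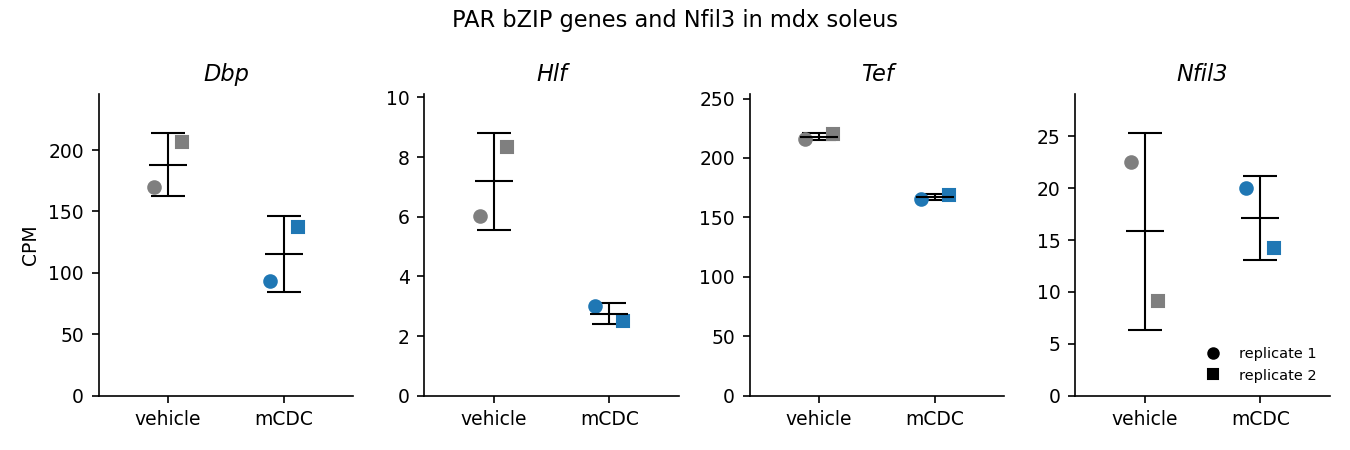
CPM (vertical axes, starting at 0) of *Dbp*, *Hlf*, *Tef* and *Nfil3* in vehicle (gray) and mCDC (blue) libraries, with replicate 1 as circles, replicate 2 as squares, the group mean as the middle bar and the SD as the outer bars (n = 2). The mCDC points lie below the vehicle points for *Dbp*, *Hlf* and *Tef*, while for *Nfil3* the vehicle points, 22.6 and 9.13 CPM, lie on both sides of the mCDC points.

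*Nfil3*, the repressor of the 4, did not separate the groups. It lies on chr13:52967209-52981073, minus strand, with 1 annotated transcript and no overlapping gene. Its levels were 20 CPM in mCDC replicate 1, 14.2 CPM in mCDC replicate 2, 22.6 CPM in vehicle replicate 1 and 9.13 CPM in vehicle replicate 2. The vehicle libraries held both the highest and the lowest value and differed 2.47-fold, while counting error at 251 to 591 counts per library was between 4.11% and 6.31% of the count. The mCDC mean of 17.1 ± 4.1 CPM and the vehicle mean of 15.8 ± 9.5 CPM (SD, n = 2 each) gave a log2 fold change of 0.12 with a standard error of 0.38. The sign depended on the libraries: the value was 0.91 without vehicle replicate 1, which reached the thresholds for a call, -0.40 without vehicle replicate 2 and -0.15 without mCDC replicate 1.

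Markers of fat cells had the same order of libraries as *Nfil3* at both ends. *Adipoq*, the adiponectin gene, had 5.46 CPM in vehicle replicate 1, 3.33 and 3.34 CPM in the mCDC libraries and 1.49 CPM in vehicle replicate 2. *Cfd*, the adipsin gene, had 44.6, 27.9, 25.6 and 13.3 CPM in that order. *Plin1* and *Lep* were also highest in vehicle replicate 1 and lowest in vehicle replicate 2, while *Fabp4*, which blood vessel cells also express, was highest in vehicle replicate 2. None of these 5 genes was called or at 0 counts. Their summed level was 147 to 149 CPM in mCDC muscles and 182 and 216 CPM in vehicle replicates 1 and 2. *Fabp4* made up most of this sum, at 114 to 115 CPM in mCDC muscles and 124 and 200 CPM in vehicle replicates 1 and 2. The part of these 5 markers in the *Nfil3* values was not tested. Vehicle replicate 2, which had the most *Dbp*, *Hlf* and *Tef*, also had the most of each of 6 endothelial markers. These summed to 206 CPM there against 102 in vehicle replicate 1 and 92.7 to 115 in mCDC muscles, with 1 of 6 called lower (*Vwf*), none higher and none at 0. Its fibro-adipogenic markers (6 genes, *Pdgfra* called lower, none at 0) and erythroid markers (5 genes, *Hba-a2* called lower, none at 0) were likewise the highest, at 511 and 675 CPM against at most 326 and 429 CPM in the other libraries. The 5 smooth muscle markers (*Rgs5* called lower) did not set vehicle replicate 2 apart, with sums of 160 to 173 CPM in mCDC and 136 to 172 CPM in vehicle muscles. The part of all these markers in the results was not tested. Without vehicle replicate 2, *Dbp*, *Hlf* and *Tef* had log2 fold changes of -0.56, -1.13 and -0.37. Of the lymphoid markers, in which *Nfil3* has a known role, *Ncr1* had 0 counts and *Nkg7* at most 1 count in any library, and 2 of 8 had enough counts to be tested.

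Per kilobase of transcript, *Dbp* was the most abundant of the 4 genes, followed by *Tef*, *Nfil3* and *Hlf*, and this order was the same in all 4 libraries. Lengths were those of the longest coding transcript in GENCODE, 1837 bases for *Dbp*, 4403 for *Tef*, 2026 for *Nfil3* and 5642 for *Hlf*. In CPM, without division by length, *Tef* was above *Dbp* in every library, so the order of this pair rests on those lengths. The sums, shares and ratios in the next paragraph use the same lengths. In vehicle muscles the levels were 102 ± 14.0 CPM per kilobase for *Dbp*, 49.5 ± 0.70 for *Tef*, 7.82 ± 4.68 for *Nfil3* and 1.27 ± 0.29 for *Hlf* (SD, n = 2). In mCDC muscles they were 62.8 ± 17.1, 38.0 ± 0.53, 8.45 ± 2.01 and 0.49 ± 0.06 (SD, n = 2). No neighbors in this order overlapped within a group. *Dbp* stood above 91.6% to 96.1% of the 13531 tested genes with a known length *Tef* above 88.8% to 91.9% and *Nfil3* above 51.6% to 70.6%, while *Hlf* stood above 14.6% to 28.8%.

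The summed level of the 3 PAR bZIP activators was lower in both mCDC libraries, at 88.9 and 113.7 CPM per kilobase, than in both vehicle libraries, at 142.6 and 163.9. *Dbp* made up 57.1% and 65.9% of that sum with mCDCs and 64.9% and 68.6% with vehicle, so its share overlapped between the groups. The share of *Hlf* was under 1% in each library, 0.60% and 0.39% in mCDC muscles and 0.75% and 0.90% in vehicle muscles. The balance between activators and repressor did not separate the groups. The activator sum was 9.01 and 16.2 times the level of *Nfil3* with mCDCs and 12.8 and 36.4 times that level with vehicle. The mean ratio was 12.6 ± 5.1 for mCDC and 24.6 ± 16.7 for vehicle (SD, n = 2 each), a gap smaller than that between the vehicle replicates.

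**Figure D2:**
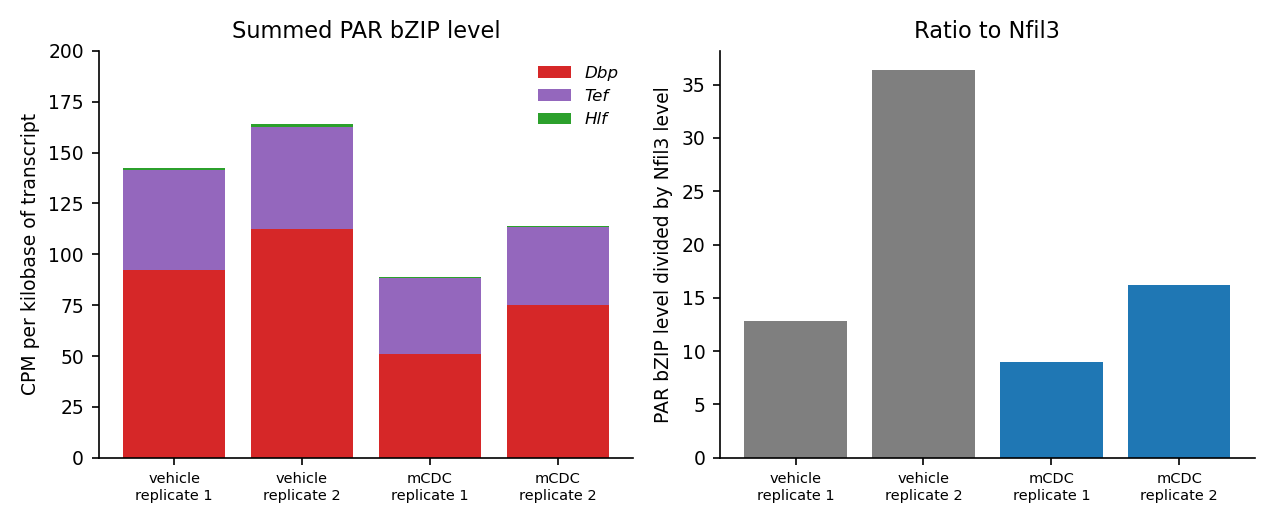
Left, the level of *Dbp*, *Tef* and *Hlf* stacked in each library, in CPM per kilobase of transcript; right, that sum divided by the level of *Nfil3* in the same library, with vehicle in gray and mCDC in blue. The stacked sums are lower in both mCDC libraries, and the ratios overlap, from 12.8 to 36.4 in vehicle and from 9.01 to 16.2 in mCDC muscles.

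The members did not share 1 profile across the libraries. Likeness was measured as the root mean square difference of log2 CPM over the 4 libraries, each gene centered on its vehicle mean. *Dbp* differed from *Tef* by 0.32 and from *Hlf* by 0.53 on this scale, and from *Nfil3* by 0.95. *Hlf* differed from *Nfil3* by 1.28, but *Tef* was nearer to *Nfil3*, at 0.66, than to *Hlf*, at 0.71. By nearness to *Dbp*, *Tef* ranked 670 and *Hlf* 4526 of 13651 other genes, and *Dbp* itself ranked 6194 by nearness to *Tef*. The 3 genes nearest to *Dbp* were *Btla*, *B230208H11Rik* and *Dio3os*, at 0.031, 0.035 and 0.037, all below 1.9 CPM in every library. The nearest to *Hlf* were *Alpk1*, *Gpr17* and *Aqp2*, at 0.050, 0.067 and 0.14, with at most 2.4, 1.6 and 0.80 CPM in any library. The nearest to *Tef* were *Bnc2*, *Dhx57* and *Mtbp*, at 0.016, 0.017 and 0.023, with at most 3.5, 14.0 and 2.0 CPM. Those nearest to *Nfil3* were *Tenm4*, *Glt28d2* and *Tmem45b*, at 0.13, 0.13 and 0.15, with at most 0.57, 6.7 and 2.4 CPM. With 4 libraries many genes share a profile, and no member was among the 3 nearest genes of another.

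**Figure D3:**
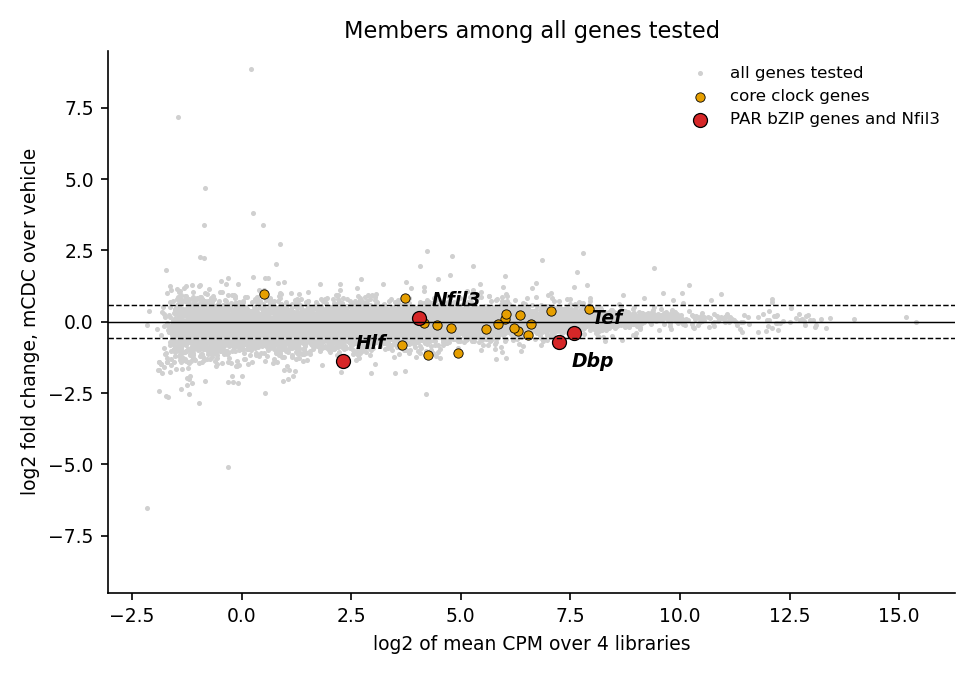
Log2 fold change of mCDC over vehicle (vertical axis) against the log2 of mean CPM (horizontal axis) for the 13652 genes tested (gray), with core clock genes in orange, the 4 members in red and dashed lines at 1.5-fold. *Hlf*, at -1.38, lies far below the lower line, *Dbp* just below it at -0.71, *Tef* between it and 0, and *Nfil3* just above 0.

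Genes that act on the members, or that carry their binding element, were taken from lists written by hand with earlier results of these libraries known, so their directions are not independent evidence. Of 21 core clock genes, 19 were tested, with 3 called lower and 2 called higher, beside the backgrounds of 2.74% and 1.26%. Their median log2 fold change was -0.09, against -0.01 over all genes tested. Of the activators that drive *Dbp* through E-boxes, *Arntl*, which encodes BMAL1, had 19.9 and 14.2 CPM in the mCDC libraries against 8.78 and 10.1 CPM in the vehicle libraries, and was called higher at 0.85 (standard error 0.21). Of its partner genes, *Npas2* was called higher at 0.96 (standard error 0.36), and *Clock*, at -0.13 (standard error 0.16), overlapped between the groups. The level of *Npas2* was low, at 2.23 and 1.51 CPM in the mCDC libraries against 1.03 and 0.91 CPM in the vehicle libraries. Among the repressors of that drive, *Per2*, *Per3* and *Ciart* were called lower at -1.18, -1.10 and -0.80, and *Bhlhe40* was the highest of the 8 repressor genes at 0.37 without being called. None of the 4 tested ROR and REV-ERB receptors that act on *Nfil3* was called, with *Nr1d1* at 0.46 and *Nr1d2* at -0.46 as the extremes, nor was any of the 4 tested clock kinases and ligases, which ran from *Btrc* at -0.23 to *Csnk1e* at 0.27.

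The next list held clock genes reported to carry a D-box. In the promoter search above, 7 of the 8 had an entry and only *Per3* held the letters of the element, so for the other 6 the list rests on reports and not on these windows. Of 8 listed, 7 were tested, 2 were called lower (*Per2* and *Per3*) and none higher, beside the backgrounds of 2.74% and 1.26%. All 8 are core clock genes already counted above, so these are the same calls and not further ones. The median log2 fold change was -0.33, the value of a single gene that overlapped between the groups, against -0.01 over all genes tested. *Per3*, whose 2 D-boxes are printed above, had 19.8 and 19.0 CPM in the mCDC libraries against 39.3 and 43.8 CPM in the vehicle libraries. *Nr1d1* was the highest of these 7 genes, at 0.46. Targets reported outside the clock gave no call: 5 of 14 were tested, from *Abcb1a*, a drug transporter gene, at -0.63 (standard error 0.38) to *Alas1*, the first enzyme of heme synthesis, at 0.32 (standard error 0.14). *Alb*, the liver gene for which *Dbp* is named, had 3 counts in all libraries together, and *Cyp7a1*, *Cyp2a5*, *Cyp2b10* and *Il3* were listed at 0 counts in every library.

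**Figure D4:**
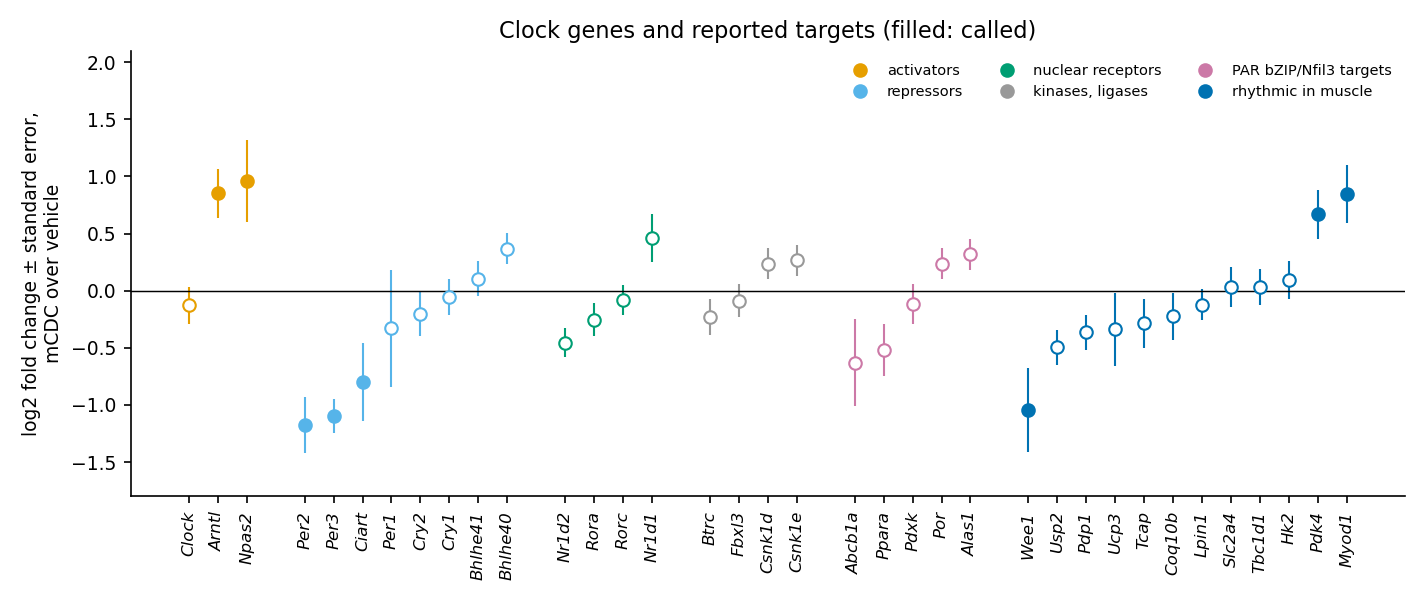
Log2 fold change of mCDC over vehicle with its standard error (vertical axis) for each tested gene of 6 lists (horizontal axis, colors), filled where called. *Arntl* and *Npas2* lie above 0 and *Per2*, *Per3* and *Ciart* below it, while no gene of the receptor, kinase and ligase, or target lists is filled.

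Of 12 genes reported as rhythmic in muscle, all were tested. *Wee1*, a cell cycle kinase gene, was called lower at -1.05 (standard error 0.37), beside a background of 2.74%. Its level was low, at 1.17 and 1.92 CPM in the mCDC libraries against 3.89 and 2.44 CPM in the vehicle libraries. *Myod1*, a myogenic factor, and *Pdk4*, a brake on pyruvate use, were called higher at 0.84 (standard error 0.26) and 0.67 (standard error 0.21), beside a background of 1.26%. The list's median log2 fold change was -0.17. The wider bZIP class, without AP-1 genes, served as the closest set of relatives: 31 of 37 were tested. None was called higher, beside a background of 1.26%, and the median log2 fold change was 0.05. *Atf7*, at only 1.19 to 3.43 CPM, was among those called lower, at -1.03 (standard error 0.37), beside a background of 2.74%. *Mafk*, at 0.47 (standard error 0.17), was the highest of these. A difference between the members and these lists was not tested.

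**Figure D5:**
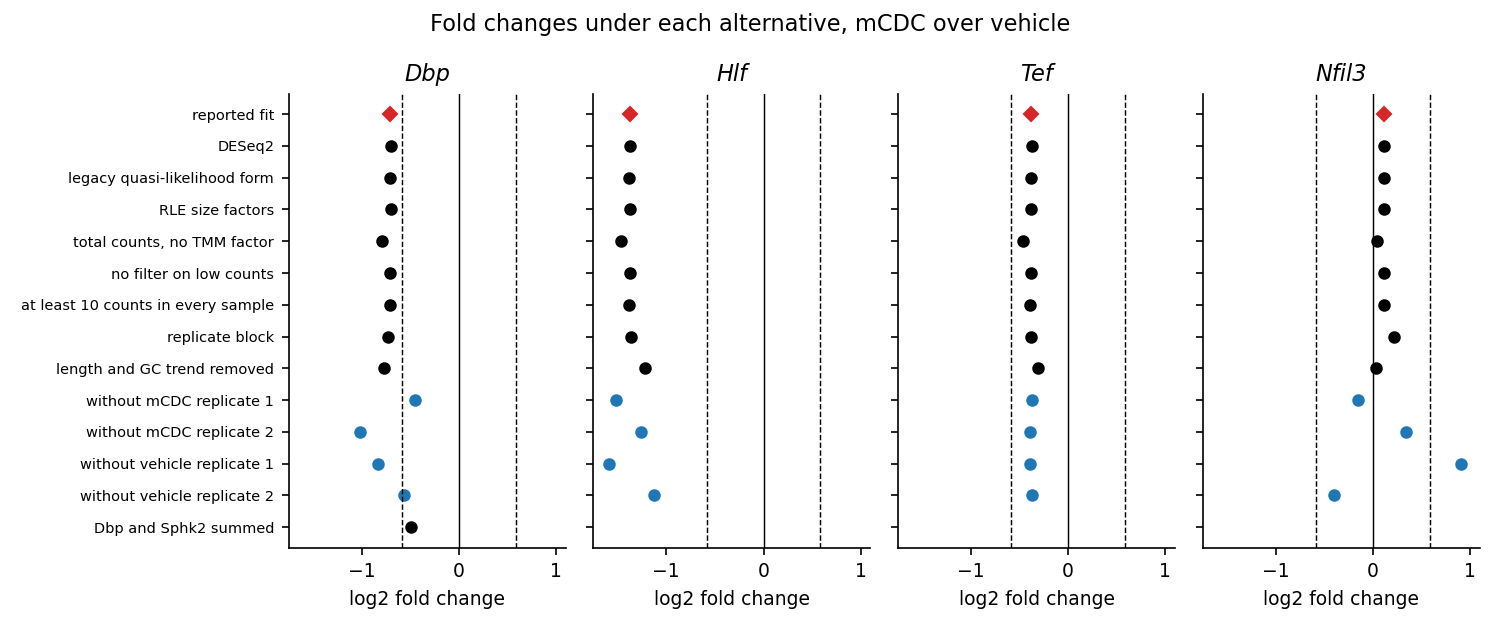
Log2 fold changes of mCDC over vehicle (horizontal axes) for each member under the reported fit (red diamond), other processing (black) and with 1 library left out (blue), with dashed lines at 1.5-fold. *Hlf* stays beyond the line in each row and *Tef* inside it, *Dbp* crosses it in 3 rows, and *Nfil3* runs from -0.40 to 0.91.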

How the data were processed

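Soleus RNA from 2 mCDC and 2 vehicle *mdx* muscles was compared. Reads were aligned by the authors to transcripts of UCSC, and the deposited values are the unscaled expected counts that RSEM gave for each gene (Bowtie2 2.1.0, RSEM 1.2.15 and mm10 in the submitters' processing notes; release of the transcript set not given in the sources used here). Names of library kits differ between the study's methods and the sample records. Of the values, 15.7% were not whole.

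After rounding, genes kept by filterByExpr were normalized by TMM (trimmed mean of M-values) and entered edgeR's quasi-likelihood F-test (version 4.0.16, R 4.3.3, legacy = FALSE). Calls and fold changes from this test were checked on simulated data. Adjusted p-values, by the Benjamini-Hochberg method, were not part of that check. Log2 CPM used a prior count of 2. Standard errors were taken as the size of the log2 fold change over the root of its F statistic. DESeq2 1.42.0 was an alternative. p-values measure the spread between these libraries, and nothing in the records says that they came from separate mice. Members and lists were chosen with earlier results of these data known. Genes named are the members, the 3 genes nearest to each, called genes of the lists and the extremes of each list; *Sphk2*, the marker genes and the untested targets were singled out, after their values were seen, for the results they touch. The result for 1 listed gene is not reported here. Of 24054 symbols, 22750 matched GENCODE M21 by name and 916 by another name. Replicate numbers were not treated as pairs, since the records tie them to nothing shared.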

Additional observations from a re-analysis of the deposited data

How the results depend on the processing

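Over the alternatives other than leaving out a library (DESeq2, the legacy form of the test, other scaling, other filters on low counts, the replicate block, and removal of a length and GC trend), *Hlf* ranged from -1.46 to -1.22, *Tef* from -0.46 to -0.31 and *Nfil3* from 0.035 to 0.22 in log2 fold change, each with the same direction and the same call as reported. *Dbp* ranged from -0.79 to -0.69 and was called under each of these; summed with *Sphk2*, an alternative chosen after seeing the data, it was at -0.50 and not called. That change follows from adding reads of a second gene. With each library left out in turn, *Dbp* ran from -1.01 to -0.45, *Nfil3* from -0.40 to 0.91, and the number of genes called over the whole table from 348 (without mCDC replicate 2) to 1107 (without vehicle replicate 1); the cause was not tested. In these fits 1 group has a single library, which is assumed to vary like the other group. With the replicate number as a replicate block, 480 genes were called in place of 546, *Dbp* was at -0.73 and *Nfil3* at 0.22, and no member's call changed; the deviations of same-numbered libraries correlated at -0.04 across genes, so the numbers were not taken as pairs. The number of core clock genes called lower was between 2 and 4 over every alternative run. Depth limits *Hlf* most, with counting error of 6.61% to 13.5% of its count, and *Dbp* and *Tef* least, at 1.29% to 2.02%. No group was large enough to test for an outlying library.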
